A study of Caenorhabditis elegans with 12 samples.

Results

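The members described here are 349 pairs of alternative 3′ splice sites (acceptors) in Caenorhabditis elegans that lie 12, 15 or 18 nt apart, so that a switch between them adds or removes 4, 5 or 6 codons and keeps the reading frame. The rule that picks them uses distance alone, but it was set with earlier results of these data known. From the catalogue of 5267 splicing events that the authors built from introns seen in these libraries, the 3483 alternative 3′ splice site events were taken, and of these the ones whose forms differ in intron length by 12, 15 or 18 nt. There are 215 members at 12 nt, 85 at 15 nt and 49 at 18 nt. They fall in 324 loci, a locus being a run of overlapping events on 1 strand.

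RNA came from whole L3 larvae grown for 34 h at 20 °C on OP50 bacteria after embryos were isolated by bleach. There are 4 groups of 3 libraries: strain DG3430 carrying sacy-1(tn1385) (libraries az024 to az026), wild-type N2 of the same library series (az021 to az023, here N2 az02), strain SZ454 carrying mog-5(az192) (az044 to az046), and wild-type N2 of the second series (az041 to az043, here N2 az04). Which N2 set stands beside which mutant was read from the library numbers in the sample titles. Each mutation is represented by 1 strain, the labels name the alleles and not their lesions, and nothing in them says whether the 3 libraries of a group are separate cultures, so each p-value below is set against the spread of these libraries alone, which could be technical. Libraries were made from total RNA after removal of ribosomal RNA, with paired 150-nt reads.

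At the end of an intron the spliceosome joins the upstream exon to a 3′ splice site, an AG dinucleotide that in worms usually closes a short U-rich consensus. When several AGs stand close together, the choice between the one nearer to the branch point (the upstream, or proximal, acceptor) and the next one (the downstream, or distal, acceptor) decides which codons the messenger RNA holds. MOG-5 is the worm counterpart of the yeast helicase Prp22, which in yeast releases the spliced messenger from the spliceosome and checks exon ligation, and SACY-1 corresponds to DDX41 of humans, another RNA helicase of the catalytic spliceosome. The title of the series names both helicases in proofreading against proximal 3′ splice sites, so use of the upstream acceptor is the quantity followed here.

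For every event the deposited lists give a score of each of its forms, and the scores of a pair add to 1000. Upstream use is the score of the form with the shorter intron as a percentage of both, so 0 means that only the downstream acceptor was listed as used. The values of the members ran from 0.03 to 99.98%, and many stood at the same 2 numbers: of 4167 values, 536 were 0.1% (29 lay below it) and 232 were 99.9% (11 lay above it). No read totals come with the scores, so the depth behind a value is unknown and no counting interval can be given. Positions are those of the first exonic base after the intron, in the ce10 build and counted from 1. Event names such as A3.03114 are the authors' own. No gene annotation of that build was used here, so the events carry no gene names.

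Of the 349 members, 334 were listed in all 12 libraries (213 at 12 nt, 81 at 15 nt and 40 at 18 nt), and each library listed between 345 and 349 of them. They were spread over all chromosomes, with 67 on I, 63 on II, 46 on III, 51 on IV, 59 on V and 63 on X, 167 on the plus and 182 on the minus strand. The introns were mostly short. The shorter of both introns had a median of 56 nt (quartiles 43 and 271 nt, range 33 to 7399 nt), and 160 members (45.85%) had one of at most 50 nt. A locus held 1 member in 310 of 324 cases. The exceptions include a stretch of chromosome V, minus strand, between 9159798 and 9164979, with 8 members, 7 of them at 18 nt and 4 of them listed in all libraries. Another is on chromosome II, minus strand, between 14635750 and 14638153, with 6 members. Another listed acceptor lay between both acceptors of 52 members, and 73 members shared an acceptor with another event.

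In wild-type larvae most of these pairs leaned on the downstream acceptor. Over the 6 N2 libraries, mean upstream use was below 10% in 157 of the 334 members, above 90% in 50 and in between in 127. The 18-nt pairs divided differently from the others. Upstream use was below 10% in 49.3% of the 12-nt, 48.1% of the 15-nt and 32.5% of the 18-nt members, and above 90% in 12.2%, 14.8% and 30% of them. No member sat at 0.1% or at 99.9% in all 12 libraries.

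Mean upstream use over the members was higher in both mutants than in the N2 libraries beside them. Over the 334 members it was 38.55% ± 0.576 in sacy-1 and 29.22% ± 0.899 in N2 az02, and 35.98% ± 1.59 in mog-5 and 31.45% ± 0.867 in N2 az04 (SD, n = 3 each). The libraries gave 38.95, 38.81 and 37.89% in sacy-1 against 28.75, 30.26 and 28.66% in N2 az02, and 35.25, 37.81 and 34.9% in mog-5 against 32.09, 30.46 and 31.79% in N2 az04. In neither pair did the libraries overlap. The sacy-1 difference was 9.33 points (SD 1.07) and the mog-5 difference 4.54 points (SD 1.81). The difference of N2 az04 over N2 az02 was 2.23 points (SD 1.25). The SD of a difference is here the root of the summed squares of both group SDs. It describes the spread of single libraries and is not the standard error of a difference of means. The 3 differences were larger over the 134 members with every library between 1 and 99% (15.85, 6.93 and 5.05 points). Taking the median over members in each library in place of the mean gave 16.04, 8.42 and 5.51 points. That compares the middle of each library and is not the shift of a typical member. The median of the differences per tested member was 2.5 points for sacy-1, 1.27 for mog-5 and 0.187 between the N2 sets. No p-value is given for these means, since the members were chosen with earlier results of these data known.

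**Figure D1:**
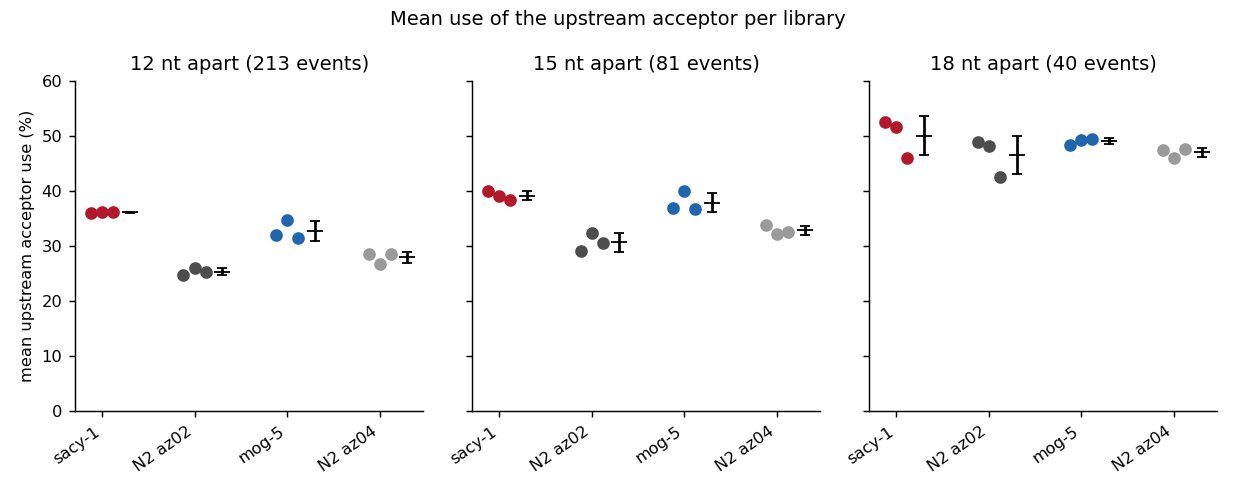
Mean upstream acceptor use (%, y axis) in each library, in 1 panel per distance, over the members listed in all 12 libraries. Points are libraries and the bars show the mean ± SD of 3. At 12 nt all sacy-1 libraries lie near 36% and all N2 az02 libraries near 25%, while at 18 nt the sacy-1 and N2 az02 libraries overlap.

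In sacy-1 the difference was smaller at the wider distances, though no test between distances was run. At 12 nt mean upstream use was 36.14% ± 0.117 in sacy-1 and 25.4% ± 0.627 in N2 az02 (10.75 points, SD 0.638). At 15 nt it was 39.18% ± 0.778 in sacy-1 and 30.7% ± 1.67 in N2 az02 (8.48 points, SD 1.84). At 18 nt it was 50.11% ± 3.49 in sacy-1 and 46.59% ± 3.46 in N2 az02 (3.52 points, SD 4.91, n = 3 each throughout). The libraries of both groups overlapped at 18 nt. In mog-5 the means were 32.79% ± 1.81 against 27.97% ± 0.961 in N2 az04 at 12 nt, 37.92% ± 1.75 against 32.89% ± 0.869 at 15 nt, and 49.06% ± 0.531 against 47.03% ± 0.867 at 18 nt. The mog-5 differences were therefore 4.82, 5.04 and 2.03 points at the 3 distances.

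Between the distances of the members lie the frame-shifting ones. Their mean differences were lower than those at 12 and 15 nt in both mutants, but not all were lower than those at 18 nt. In sacy-1 against N2 az02 the mean difference per event was 5.44 points at 11 nt, 10.61 at 12, 4.58 at 13, 1.39 at 14, 8.48 at 15, 1.98 at 16, 1.73 at 17 and 4.72 at 18 nt. In mog-5 against N2 az04 it was 2.3 points at 11 nt, 4.86 at 12, 2.21 at 13, 2.05 at 14, 5.51 at 15, -0.4 at 16, 1.15 at 17 and 1.74 at 18 nt. The next multiple of 3, 21 nt, gave 1.03 points in sacy-1 over 24 events and 0.556 points in mog-5 over 25 events. These per-distance means are descriptions without a test, and from 16 nt upward the frame-shifting distances hold at most 28 events each.

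**Figure D2:**
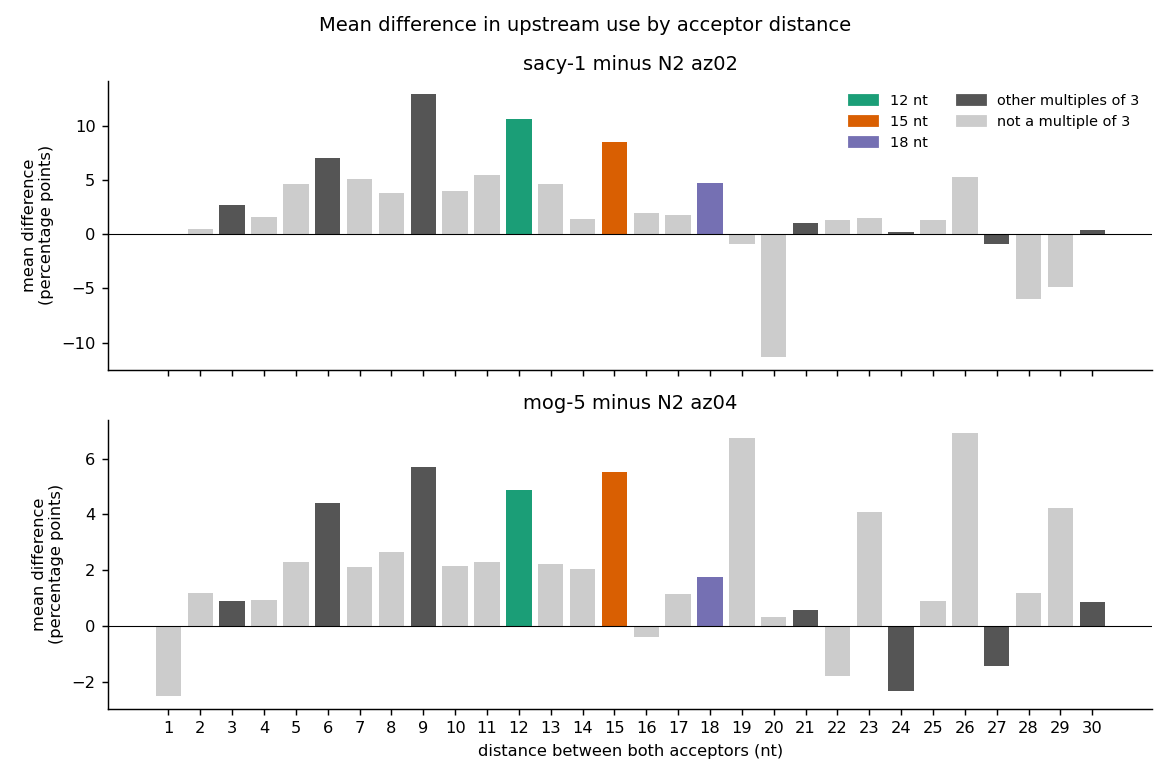
Mean difference in upstream use (percentage points, y axis) of all alternative 3′ events tested in the comparison, by the distance between both acceptors (nt, x axis), for sacy-1 minus N2 az02 (top) and mog-5 minus N2 az04 (bottom). The bars at 12 and 15 nt stand above those of the frame-shifting distances from 10 to 17 nt in both panels; beyond 18 nt few events stand behind a bar, such as 9 at 19 nt and 16 at 20 nt in the top panel.

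The first comparison set sacy-1(tn1385) against N2 az02. By the calling rule given in the next paragraph, upstream use was called higher in 57 of the 337 members tested and lower in none. Of all events tested, 6.17% were called higher and 0.158% lower. The rise was large. Over the 57, the median difference was 38.43 points (15.86 to 81.44), with a median upstream use of 53.17% in sacy-1 and 12.13% in N2 az02. In 31 of them the upstream acceptor carried more than 50% in sacy-1, and in 34 it carried less than 15% in N2 az02.

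An event was called at a limma adjusted p below 0.05 (Benjamini-Hochberg over all events of the catalogue) and a difference of at least 15 points. By this rule 16.9% of the members were called, against a background of 6.33% of all 5069 events tested. The share was 9.29% of all alternative 3′ events, 23.3% of the 9-nt pairs and 10.1% of the 6-nt pairs. By distance it was 45 of 214 members at 12 nt (21%), 10 of 82 at 15 nt (12.2%) and 2 of 41 at 18 nt (4.88%), so the share at 18 nt was not above the background. All 57 had sacy-1 libraries entirely above the N2 az02 libraries. Of all 337 members, 155 (46%) lay entirely above and 12 entirely below, where 25.4% and 3.67% of all events did so. The median difference of the members was 2.5 points, beside 1.94 for all alternative 3′ events and 1.02 for all events. Of the 337 differences 275 (81.6%) were above 0, near the 78.52% of all alternative 3′ events. The share was 69.38% of all events and 90.21% of the 9-nt pairs.

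At 12 nt the largest difference was at A3.03114 (chromosome X, plus strand, acceptors 5286961 and 5286973, shorter intron 41 nt). Upstream use there was 93.0, 75.5 and 88.5% in sacy-1, against 0.1, 9.09 and 3.45% in N2 az02. The downstream acceptor thus dominated in every N2 az02 library and the upstream one in every sacy-1 library. The difference was 81.44 points (SE 5.4, adjusted p = 0.00183).

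A3.00167 (chromosome I, plus strand, acceptors 5260427 and 5260439, intron 44 nt) had 80.8, 81.7 and 80.5% in sacy-1, against 5.98, 15.5 and 13.5% in N2 az02. The sacy-1 libraries lay within about a point of each other and far above N2 az02. The difference was 69.31 points (SE 2.7, adjusted p = 4.911e-04).

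A3.02837 (chromosome V, plus strand, acceptors 14190147 and 14190159, intron 40 nt) had 60, 83.3 and 86.4% in sacy-1, against 14.3, 5.56 and 15.8% in N2 az02 (64.68 points, adjusted p = 0.0122). The groups stood apart, although the N2 az04 libraries, at 40.9, 34.9 and 48.7%, lay between them. The call was lost against N2 az04, where the difference was 35.07 points, and without az021, az023 or az025.

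A3.00462 (chromosome I, plus strand, acceptors 10187250 and 10187262, intron 42 nt) had 83.3, 97.7 and 90% in sacy-1, against 33.3, 50 and 46.9% in N2 az02 (46.93 points, adjusted p = 0.0127). Here N2 az04, at 82.7, 56.5 and 74.8%, came close to sacy-1. Against N2 az04 the difference was 18.97 points and not called, and the call was also lost against all 6 N2 libraries and without az023 or az026.

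A3.02037 (chromosome IV, plus strand, acceptors 8292752 and 8292764, intron 929 nt) is 1 of the members with another acceptor between both, at 8292758. The outer pair had 74.2, 75.6 and 66.9% in sacy-1, against 16.3, 26.5 and 23.0% in N2 az02 (50.28 points, adjusted p = 0.00257). The inner pairs, each 6 nt wide, stayed near their ends. Against the middle acceptor, the upstream one held 97.2 to 98.9% in sacy-1 and 95.2 to 99.9% in N2 az02. Against the downstream acceptor, the middle one held 3.12 to 6.82% in sacy-1 and 0.1 to 1.02% in N2 az02. Neither inner pair was called (adjusted p = 0.875 and 0.0813).

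Among the 15-nt members the largest difference was at A3.00464 (chromosome I, minus strand, acceptors 10192118 and 10192103, intron 42 nt). Upstream use was 95.7, 89.8 and 87.2% in sacy-1, against 13.04, 29.1 and 27.3% in N2 az02 (67.77 points, SE 5.19, adjusted p = 0.00287). The groups did not overlap. N2 az04 at 53.2, 34.1 and 49.7% lay between them, and the call held against it with a difference of 45.25 points, the lowest of all alternatives for this event.

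A3.02293 (chromosome IV, plus strand, acceptors 13302913 and 13302928, intron 38 nt) had 64.6, 61.8 and 62.0% in sacy-1, against 0.1, 17.2 and 3.85% in N2 az02 (55.74 points, adjusted p = 0.004). A3.02416 (chromosome V, plus strand, acceptors 4372923 and 4372938, intron 43 nt) had 63.5, 63.5 and 61.8% in sacy-1, against 12.2, 17.3 and 19.7% in N2 az02 (46.51 points, adjusted p = 6.221e-04). A3.00958 (chromosome II, plus strand, acceptors 10263004 and 10263019, intron 39 nt) had 64.7, 60.2 and 61.2% in sacy-1, against 11.2, 27.4 and 16% in N2 az02 (43.81 points, adjusted p = 0.00696). In all 3 the sacy-1 libraries lay within 5 points of each other around 62%, and the N2 az02 libraries spread more widely.

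A3.00299 (chromosome I, minus strand, acceptors 7390670 and 7390655) follows a long intron of 1186 nt. It had 59.1, 71.4 and 54.5% in sacy-1, against 12.5, 27.3 and 0.1% in N2 az02 (48.4 points, adjusted p = 0.0337). The groups stood apart but each was wide, and the call was lost on the arcsine square root scale and when az021, az023 or any sacy-1 library was left out.

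Both called 18-nt members followed introns of 42 nt. A3.00066 (chromosome I, minus strand, acceptors 2765697 and 2765679) had 75.6, 71.0 and 82.7% in sacy-1, against 13.6, 15.2 and 11% in N2 az02 (63.2 points, SE 3.33, adjusted p = 9.042e-04). A3.02122 (chromosome IV, plus strand, acceptors 9391252 and 9391270) had 42.3, 40 and 41.9% in sacy-1, against 3.57, 17.6 and 16.9% in N2 az02 (28.68 points, adjusted p = 0.0197). The groups did not overlap in either. A3.02122 differed from N2 az04, at 28.4, 23.0 and 36.6%, by 12.1 points and was not called there, nor against all 6 N2 libraries, nor without az023 or any sacy-1 library.

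**Figure D3:**
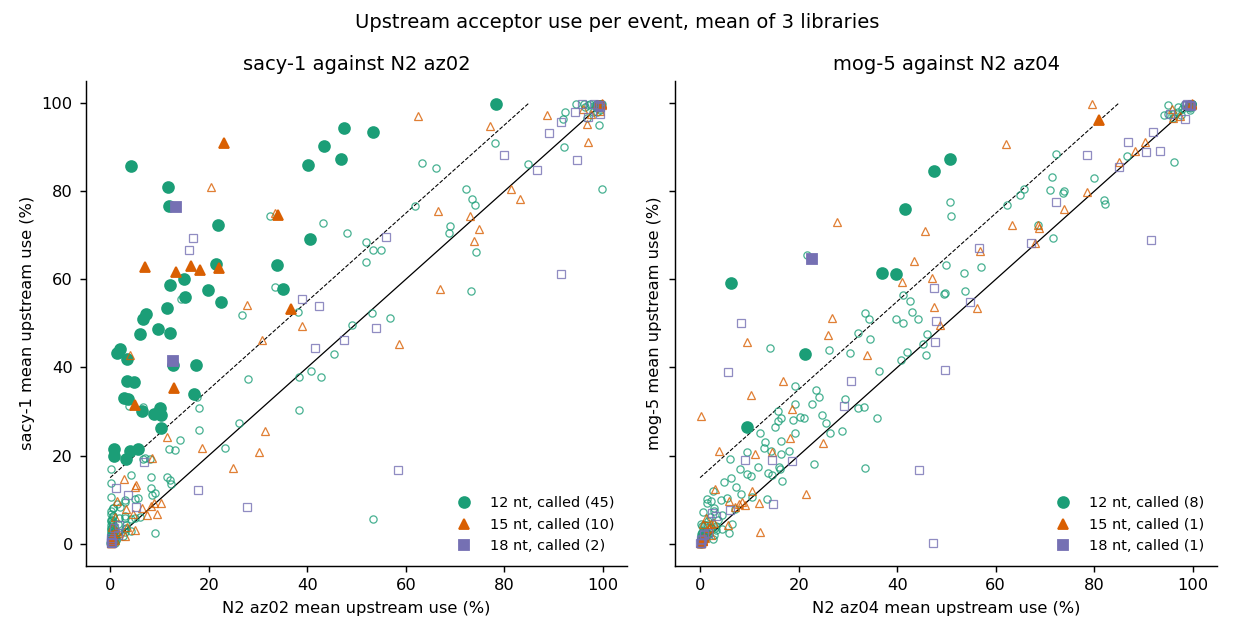
Mean upstream use per member (%, 3 libraries each) in the mutant (y axis) against the N2 libraries beside it (x axis), for sacy-1 (left) and mog-5 (right). Filled symbols are called members, open symbols are not called, the solid line marks equality and the dashed line a difference of 15 points. All 57 filled symbols on the left and all 10 on the right lie above the dashed line.

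The share of members called differed with the wild-type level of a pair and with the length of its intron. Sorted by upstream use in N2 az04, which does not enter this comparison, the calls were 5 of 127 members below 5%, 20 of 58 between 5 and 20%, 26 of 61 between 20 and 50%, 6 of 45 between 50 and 95% and 0 of 44 above 95%. Sorted by intron, they were 39 of 158 members with an intron of at most 50 nt, 6 of 51 between 51 and 100 nt, 7 of 71 above 100 and up to 500 nt and 5 of 57 above that. The median shorter intron was 44 nt in called and 69 nt in uncalled members. The wild-type level also differed between these intron classes, with a median N2 az02 use of 5.45%, 40.5%, 11.5% and 18.6% from the shortest to the longest, and the separate parts of level and length in the calls were not tested.

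Other distances were set beside the members at a like wild-type level. Where N2 az04 used the upstream acceptor at 5 to 50%, 46 of 119 members were called (38.7%, median difference 14.36 points). In the same range it was 89 of 234 pairs at 9 nt (38%, median 14.86 points), 62 of 403 at 6 nt (15.4%, median 5.43 points) and 6 of 47 frame-shifting pairs 10 to 17 nt apart (12.8%, median 7.01 points). Outside that range the 9-nt pairs were called more often than the members, at 27.9% against 13.3% where N2 az04 stood between 50 and 95%, and at 8.7% against 3.94% below 5%. In mog-5, sorted by N2 az02, 7.14% of the members and 10.5% of the 9-nt pairs between 5 and 50% were called. The differences between these classes were not tested.

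The N2 set matters for the size of these values. In 55 of the 57 called members N2 az04 averaged above N2 az02, by a median of 9.62 points (-3.76 to 29.61). In 28 of them the N2 az04 libraries lay entirely above N2 az02. Over all 339 members tested, N2 az04 averaged above in 204 (60.18%, beside 57.59% of all events), with a median of 0.187 points. It lay entirely above in 13.6% of those members and in 13.8% of all events. The 57 were called against N2 az02, which favours members where that set was low. The sacy-1 libraries lay entirely above N2 az04 in 55 of the 57, but these members were picked for high sacy-1 values. The share of all events that did so was not counted. With N2 az04 in place of N2 az02, 44 members were called, 43 of them upward, and 37 of the 57 kept their call.

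The second comparison set mog-5(az192) against N2 az04. Upstream use was called higher in 10 of the 344 members tested and lower in none. The median difference over the 10 was 29.49 points (15.15 to 52.83), with a median upstream use of 62.96% in mog-5 and 38.3% in N2 az04. The called members were 2.91% of those tested, against a background of 1.3% of all 5172 events (1.3% upward and 0% downward). The share was 1.92% of all alternative 3′ events, 4.91% of the 9-nt pairs and 2.92% of the 6-nt pairs. The called members were 8 of 214 at 12 nt, 1 of 83 at 15 nt and 1 of 47 at 18 nt. An intron of at most 50 nt was found in 8 of the 10.

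Below the threshold the shift was upward too. The mog-5 libraries lay entirely above N2 az04 in 112 members (32.6%, against 18.7% of all events) and entirely below in 11 (3.2%, against 2.82%). Of the 344 differences 287 (83.43%) were above 0, beside 75.62% of all alternative 3′ events, 67.05% of all events and 85.61% of the 9-nt pairs. Their median was 1.27 points, beside 1.02 for all alternative 3′ events and 0.503 for all events.

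The largest mog-5 difference was again at A3.03114, described above. Upstream use was 61.4, 64.9 and 51.3% in mog-5, against 9.68, 4.04 and 5.38% in N2 az04 (52.83 points, SE 4.1, adjusted p = 0.0148). At the 18-nt member A3.00066 it was 67.5, 65.8 and 60.4% in mog-5, against 28.5, 18.5 and 21.4% in N2 az04 (41.79 points, adjusted p = 0.0158). In both, all mog-5 libraries used mainly the upstream acceptor and all N2 az04 libraries mainly the downstream one. The call of A3.03114 was lost without az041, az042, az043 or az044, and that of A3.00066 without az042, az043, az044 or az045.

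A3.03213 (chromosome X, plus strand, acceptors 8024505 and 8024517, intron 44 nt) had 86.8, 84.5 and 82.5% in mog-5, against 48.6, 46.9 and 46.8% in N2 az04 (37.19 points, SE 1.29, adjusted p = 0.00178). A3.00874 (chromosome II, plus strand, acceptors 8217295 and 8217307, intron 42 nt) had 88.8, 87.6 and 85.6% in mog-5, against 55.0, 48.1 and 49.0% in N2 az04 (36.62 points, SE 2.18, adjusted p = 0.00761). Both pairs were used about equally in N2 az04, with tight libraries, and mainly upstream in mog-5. A3.03213 was the only one of the 10 to keep its call in every alternative run, and A3.00874 lost it only without az043.

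A3.02837 had 71.4, 77.1 and 79.6% in mog-5, against 40.9, 34.9 and 48.7% in N2 az04 (34.55 points, adjusted p = 0.0379). A3.00167 had 42.7, 47.3 and 38.9% in mog-5, against 21.0, 18.7 and 24.1% in N2 az04 (21.66 points, adjusted p = 0.0379). A3.02789 (chromosome V, minus strand, acceptors 12949172 and 12949160, intron 39 nt) had 23.4, 30.8 and 25.3% in mog-5, against 11.9, 6.9 and 9.96% in N2 az04 (16.91 points, adjusted p = 0.0497). In these 3 pairs the groups stood apart, and the call was lost when any 1 of the 6 libraries was left out. That of A3.02789 was also lost with a variance trend and robust fit.

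A3.00775 (chromosome II, plus strand, acceptors 6792982 and 6792994, intron 88 nt) had 57.9, 63.2 and 63.0% in mog-5, against 39.4, 33.9 and 37.5% in N2 az04 (24.42 points, adjusted p = 0.0177). A3.00409 (chromosome I, plus strand, acceptors 9134968 and 9134980, intron 536 nt) had 59.1, 63.1 and 61.3% in mog-5, against 41.0, 34.5 and 43.6% in N2 az04 (21.48 points, adjusted p = 0.0389). These were the 2 called members with introns above 50 nt. A3.00409 lost its call without any 1 library. A3.00775 lost it without any library other than az044, in 1 fit of all 12 libraries and against N2 az02.

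The only called 15-nt member, A3.03362 (chromosome X, plus strand, acceptors 13043751 and 13043766, intron 47 nt), already favoured the upstream acceptor. It had 93.1, 95.3 and 99.9% in mog-5, against 78.8, 81.6 and 82.5% in N2 az04 (15.15 points, adjusted p = 0.0457), and the call was lost in 10 of 12 alternatives. An acceptor at 13043760 lies between. The pair of 13043751 with it, 9 nt wide, had 8.11, 8.97 and 9.5% upstream use in mog-5, against 3.98, 3.45 and 4.18% in N2 az04 (4.99 points, adjusted p = 0.0209), so the outer acceptors of this member are both minor ones beside the middle acceptor, which held 98.9 to 99.9% against the downstream one in every mog-5 and N2 az04 library.

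**Figure D4:**
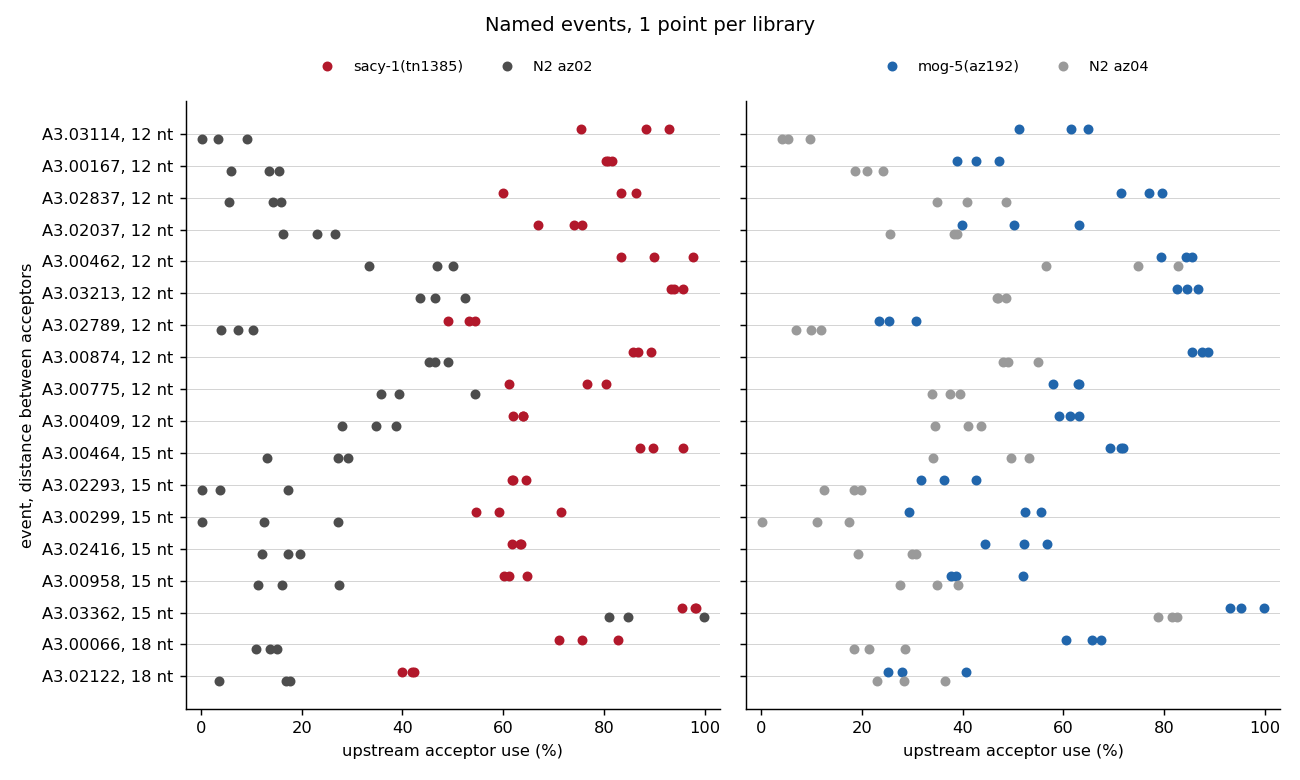
Upstream acceptor use (%, x axis) in each library of 18 named members (rows, with the authors' event name and the distance), for sacy-1 and N2 az02 (left) and mog-5 and N2 az04 (right). Each point is a library; in the left panel the groups are apart in all rows but A3.03362, and in the right panel they overlap at A3.00462, A3.00958 and A3.02122.

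The mog-5 count rested on each of its libraries. Leaving out 1 library left 3 calls without az041, 2 without az042, 2 without az043, 3 without az044, 3 without az045 and 4 without az046. The mog-5 libraries were also unlike each other, since az045 was the highest of its group in 148 of 305 members and az046 the lowest in 144. In the N2 az04 group az041 was the highest in 134 of 280 members and az042 the lowest in 139. What sets these libraries apart was not tested.

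Members called in both mutants numbered 8, which is 14.04% of the sacy-1 calls and 80% of the mog-5 calls. Over all events of the catalogue it was 52, or 16.2% of the sacy-1 and 77.61% of the mog-5 calls, so the shares among the members were near those of all events. The comparisons share no library. All 57 sacy-1 calls had a mog-5 difference above 0, with a median of 11.75 points (1.54 to 52.83). All 10 mog-5 calls had a sacy-1 difference above 0. Among all members tested, 83.43% of the mog-5 and 81.6% of the sacy-1 differences were above 0. Among all events it was 67.05% and 69.38%. These counts were not made for the calls of all events. At A3.03213 upstream use was 95.8, 93.4 and 93.9% in sacy-1, against 52.5, 46.4 and 43.4% in N2 az02 (46.93 points, adjusted p = 9.923e-04), beside the 37.19 points of mog-5. At A3.00874 it was 85.9, 89.4 and 86.8% in sacy-1, against 45.3, 49.1 and 46.4% in N2 az02 (40.42 points, adjusted p = 4.53e-04), beside 36.62 points in mog-5. In both pairs all libraries of either mutant lay above all N2 libraries. The test of the difference between the effects did not pass, with adjusted p = 0.164 for A3.03213 (9.74 points, SE 2.97) and adjusted p = 0.683 for A3.00874 (3.8 points, SE 2.71).

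Over the 334 members tested in both, both differences were above 0 in 245 and below 0 in 24. The sacy-1 difference was the larger in 235 members and the mog-5 difference in 99. Across members the differences had Pearson's r 0.734 and Spearman's rho 0.668, a description in which all points share the same 12 libraries.

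The interaction term asked for which members the sacy-1 effect and the mog-5 effect differ. It was called in 14 of 334 members (4.19%), against a background of 1.49% of 5019 events (1.43% with the larger effect in sacy-1 and 0.0598% in mog-5). The share was 2.18% of all alternative 3′ events, 7.16% of the 9-nt pairs and 1.54% of the 6-nt pairs. In all 14 the sacy-1 effect was the larger, by 16.95 to 47.65 points. Of these, 10 were 12-nt pairs, 4 were 15-nt pairs and none was an 18-nt pair. All 14 were called in sacy-1 and 2 of them in mog-5. The sacy-1 libraries lay entirely above the mog-5 libraries in all 14, with a median difference of 20.64 points. N2 az04 also averaged above N2 az02 in all 14, by a median of 7.57 points. By its definition the interaction adds this N2 difference to the sacy-1 minus mog-5 difference. Upward calls therefore favour members where sacy-1 stood above mog-5 and members where N2 az04 stood above N2 az02. Neither count is a result apart from the call. At A3.00464 the N2 difference was 22.52 of the 42.54 points. What lies behind the N2 difference was not tested.

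The smallest adjusted p was that of A3.02204 (chromosome IV, minus strand, acceptors 11210268 and 11210256, intron 49 nt). Upstream use was 45.2, 44.9 and 42.6% in sacy-1, against 0.97, 2.81 and 2.12% in N2 az02, while it was 9.91, 10.9 and 8.94% in mog-5, against 5.82, 2.41 and 4.49% in N2 az04. The upstream acceptor was little used in both N2 sets, stayed low in mog-5 and stood above 40% in every sacy-1 library. The effects were 42.27 and 5.69 points, and their difference was 36.59 points (SE 1.49, adjusted p = 2.736e-06).

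A3.02090 (chromosome IV, plus strand, acceptors 8832831 and 8832843, intron 157 nt) had 46.2, 43.1 and 40.3% in sacy-1, against 0.74, 3.14 and 0.1% in N2 az02, and 10.9, 13.5 and 11.6% in mog-5, against 3.86, 1.54 and 2.75% in N2 az04. The interaction was 32.59 points (SE 2.1, adjusted p = 8.184e-05). In mog-5 its 9.27 points passed the adjusted p (0.0254) but not the minimum of 15 points. At A3.00167 the interaction was 47.65 points (SE 3.95, adjusted p = 3.601e-04), the largest of the 14. These 3 kept the interaction call in all 14 alternatives run.

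In the other direction no interaction was called. The smallest adjusted p were 0.107 at A3.01857 (chromosome IV, acceptors 2326251 and 2326266, -3.86 points), 0.138 at A3.03290 (chromosome X, acceptors 10283198 and 10283186, -54.69 points, called without az021 at -68.86 points) and 0.149 at A3.02745 (chromosome V, acceptors 12134087 and 12134099, -4.6 points). A3.01857 had 6.53, 6.55 and 7.3% in sacy-1, against 9.64, 8.74 and 10.2% in N2 az02, a small difference between tight groups that missed the threshold (-2.75 points, adjusted p = 0.0591).

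**Figure D5:**
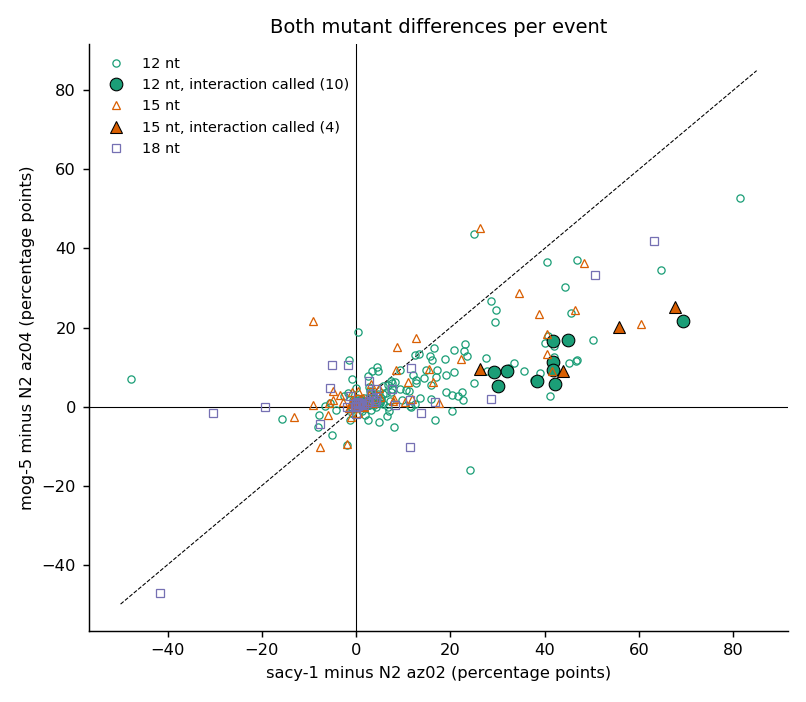
The sacy-1 minus N2 az02 difference (x axis) and the mog-5 minus N2 az04 difference (y axis) of each of the 334 members tested in both, in percentage points. The dashed line marks equal differences, and filled symbols mark the 14 members called in the interaction, all of which lie below the line.

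No member was called downward in either mutant, although the mean of 6 members was at least 15 points lower in sacy-1 than in N2 az02 (2.8% of all events) and that of 4 members in mog-5 than in N2 az04 (1.86% of all events). The most negative sacy-1 difference was at A3.03290 (intron 145 nt), with 0.1, 16.7 and 0.1% in sacy-1, against 25, 75 and 60% in N2 az02 (-47.71 points, SE 14.5, adjusted p = 0.14). The groups do not overlap, but N2 az04 at 20, 18.2 and 11.1% lay nearer to sacy-1 than to N2 az02, and this was also the member with the largest difference between the N2 sets. It was called downward without az021 (-61.88 points) and in 1 fit of all 12 libraries. In mog-5 it had 28.6, 25 and 16.7%, a difference of 6.98 points from N2 az04 (adjusted p = 0.535).

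The next most negative values came from 18-nt members with very variable libraries. Several of their values were simple fractions such as 33.3, 50 and 75%. Whether few reads stand behind them was not tested, since the depth is unknown. A3.02595 (chromosome V, minus strand, acceptors 9164563 and 9164545, in the crowded stretch named above) had 50, 0.1 and 0.1% in sacy-1, against 99.9, 75 and 0.1% in N2 az02 (-41.6 points, adjusted p = 0.551). In mog-5 it had 0.1% in all 3 libraries, against 33.3, 33.3 and 75% in N2 az04 (-47.12 points, adjusted p = 0.189), and without az043 the -33.23 points that remained were called. The same acceptors joined to a nearer donor, event A3.02582, had 81.8, 80 and 70.6% in mog-5, against 77.8, 63.6 and 75% in N2 az04 (5.33 points, adjusted p = 0.737). A3.01723 (chromosome III, plus strand, acceptors 12023696 and 12023714) had 60, 83.3 and 40% in sacy-1, against 88.9, 99.9 and 85.7% in N2 az02 (-30.39 points, adjusted p = 0.246). A3.00411 (chromosome I, acceptors 9165321 and 9165339) and A3.02197 (chromosome IV, acceptors 11071748 and 11071766) had mog-5 differences of -27.71 points (adjusted p = 0.534) and -22.71 points (adjusted p = 0.371), and their groups overlapped.

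Other pairs used both acceptors in wild type and showed no called difference in either mutant. A3.03190 (12 nt, chromosome X, minus strand, acceptors 7529822 and 7529810, intron 47 nt) had 41.8, 43.0 and 44.1% in sacy-1, against 47.6, 41.3 and 47.5% in N2 az02 (-2.52 points, SE 2.04), and 39.0, 38.1 and 40.4% in mog-5, against 31.6, 39.3 and 38.1% in N2 az04 (2.77 points, SE 2.31). A3.01680 (18 nt, chromosome III, plus strand, acceptors 10418705 and 10418723, intron 493 nt) had 39.4, 49.5 and 50% in sacy-1, against 50, 48.3 and 44.3% in N2 az02 (-1.24 points, SE 3.54), and 50.7, 52.8 and 47.7% in mog-5, against 49.6, 48.4 and 45.5% in N2 az04 (2.6 points, SE 1.8). In both pairs each mutant overlapped the N2 set beside it, and no mutant difference exceeded 1.5 of its standard errors. At A3.03190 the N2 az04 libraries lay entirely below N2 az02 (-9.14 points). The other members of this kind were A3.03407 (12 nt, -0.61 points in sacy-1 and 1.56 in mog-5) and A3.02765 (15 nt, -9.12 and 0.273). They also included A3.03408 (15 nt, 10.43 and 1.03) and A3.02586 (18 nt, 2.78 and 6.35). None had an adjusted p below 0.39, although the sacy-1 libraries of A3.02765 all lay below those of N2 az02. The SE of the sacy-1 difference was 12.7 points at A3.03408. At A3.02586 it was 38.4 points, with 99.9, 25 and 0.1% in N2 az02. With such errors these pairs cannot show that sacy-1 left them unchanged.

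Of the members with another acceptor between theirs, 7 of 45 (15.6%) were called in sacy-1 against 50 of 292 (17.1%) of the rest, and 1 of 49 (2.04%) against 9 of 295 (3.05%) in mog-5. Their median difference was the larger, 11.84 points against 1.77 for the rest in sacy-1 and 5.87 against 0.947 in mog-5, and neither contrast was tested. Of the 7 called in sacy-1, 2 had an inner pair that was called too and 5, A3.02037 among them, had none. At A3.02893 (chromosome V, plus strand, acceptors 18101670, 18101673 and 18101682) the outer pair rose by 40.06 points in sacy-1 (93.8, 94.0 and 92.1%, against 42.5, 66.7 and 50.7% in N2 az02, adjusted p = 0.0265), the inner 9-nt pair by 33.09 points (40, 41.2 and 38.9%, against 2.33, 9.26 and 9.21%, adjusted p = 0.00189), and the inner 3-nt pair differed by 1.12 points (adjusted p = 0.798). At A3.01809 (chromosome IV, plus strand, acceptors 649904, 649910 and 649916) the outer pair rose by 44.25 points (adjusted p = 0.0201) and the upstream 6-nt pair by 60.21 points (54.5, 81.8 and 55.6% in sacy-1, against 0.1, 11.1 and 0.1% in N2 az02, adjusted p = 0.0192), while the downstream 6-nt pair differed by -12.41 points (adjusted p = 0.715). These 2 loci were chosen after their values were seen. The pairs of a locus share acceptors and are not separate measurements.

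The N2 sets differed from each other at these acceptors without passing the test. Of 339 members tested, 0 were called by limma between N2 az04 and N2 az02, against a background of 0.0392% of 5098 events, and 0 were called with a variance trend and robust fit, on the arcsine scale or in 1 fit of all libraries. At an unadjusted p below 0.05, 41 were higher and 10 lower in N2 az04 (10.7% and 2.59% of all events). The N2 az04 libraries lay entirely above N2 az02 in 46 members (13.6%, against 13.8% of all events) and entirely below in 15 (4.42%, against 3.9%), so the members stood near the background. The median difference was 0.187 points, and 23 members were higher and 6 lower by 15 points or more (6.12% and 2.63% of all events). This comparison shares the N2 az02 libraries with the first and the N2 az04 libraries with the second.

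After A3.03290 the largest differences between the N2 sets were at A3.01606 (12 nt, chromosome III, minus strand, acceptors 8829723 and 8829711), with 72.1, 50.6 and 48.3% in N2 az04, against 41.7, 16.7 and 22.2% in N2 az02 (30.13 points, adjusted p = 0.329), and at A3.02587 (18 nt, chromosome V, minus strand, acceptors 9162571 and 9162553), with 57.1, 55.2 and 57.6% in N2 az04, against 60, 99.9 and 99.9% in N2 az02 (-29.97 points, adjusted p = 0.411). The groups overlapped in neither pair, and A3.02587 was called without az021 (-43.27 points). At A3.02587, mog-5 at 67.4, 67.9 and 65.8% differed from N2 az04 by 10.4 points (adjusted p = 0.0177), which is under the minimum of 15 points.

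Several members are listed a second time in the annotation-based catalogue that was deposited beside the one used here. There, 8 alternative last exon events hold the acceptor pair of 7 members, with the same values in every library. Of these members A3.00462, A3.02264, A3.02647 and A3.02852 were called in sacy-1, and the second listing is the same measurement.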

How the data were processed

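For each of the 12 libraries the authors deposited 2 lists of splicing events in ce10, one built on introns seen in the libraries and one on annotation; the values in them are per mille scores of the included and excluded form of each event, per the file headers and columns, with no read totals. The submitters' processing notes name STAR, Bowtie2 and SAMtools without versions; the step from reads to scores is not given in the sources used here. Analysis rested on the library-intron list, and the annotation-based list was read only for acceptor pairs that it repeats.

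Here the score of the included form, which has the shorter intron, was divided by the sum of both and written as a percentage. limma 3.58.1 in R 4.3.3 was fitted to these percentages over every event listed in all libraries of a comparison (6, or 12 for the interaction), with Benjamini-Hochberg adjustment over all of them. Called events passed an adjusted p of 0.05 and moved by 15 points or more. The script was tested on simulated data. Tables were made with Python 3.11.15.

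The members, lists and rules were chosen with earlier results of these data known. The rule for named members took, with 1 event per locus, the 5 largest called sacy-1 differences of each distance, the 12 largest in mog-5, 6 called in both, the 3 smallest interaction p each way, the 3 most negative differences per mutant, 2 members per distance with N2 use of 30 to 70% and the smallest differences, and the 3 largest differences between the N2 sets. Alternatives left out each library, changed the minimum difference, the scale, the variance model, the filter and the N2 libraries.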

Additional observations from a re-analysis of the deposited data

Results flagged for a closer look

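In 14 members the sacy-1 effect and the mog-5 effect differed by the interaction test (limma adjusted p below 0.05 and at least 15 points). In all 14 the sacy-1 effect was the larger. They were 4.19% of the 334 members, beside 1.49% of all 5019 events. Each value below includes the N2 az04 minus N2 az02 difference, which was 22.52 of the 42.54 points at chromosome I 10192118. The differences between the effects at the 12-nt pairs, named by their upstream acceptor, were 47.65 points at chromosome I 5260427, 36.59 points at chromosome IV 11210268, 32.59 points at chromosome IV 8832831, 32.07 points at chromosome V 14830107, 30.47 points at chromosome III 3799857, 28.13 points at chromosome V 12949172, 25.34 points at chromosome I 5430764, 25.09 points at chromosome III 6597951, 23.1 points at chromosome I 1570339 and 20.55 points at chromosome X 4589935. At the 15-nt pairs they were 42.54 points at chromosome I 10192118, 35.68 points at chromosome IV 13302913, 34.9 points at chromosome II 10263004 and 16.95 points at chromosome I 10230430.

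The pair at 14830107 had 39.2, 41.4 and 45.0% in sacy-1, against 3.09, 4.7 and 2.52% in N2 az02, and 14.9, 19.4 and 13.3% in mog-5, against 13.1, 5.45 and 9.97% in N2 az04. The pair at 3799857 had 48.03, 49.1 and 45.9% in sacy-1, against 2.89, 5.76 and 9.26% in N2 az02, and 23.0, 35.1 and 21.1% in mog-5, against 17.8, 11.8 and 16.01% in N2 az04. The pair at 1570339, which follows the longest intron of the 14 (2651 nt), had 41.9, 36.3 and 32.2% in sacy-1, against 4.0, 5.53 and 4.84% in N2 az02, and 22.6, 23.7 and 19.2% in mog-5, against 17.6, 8.91 and 12.3% in N2 az04. In these 3 pairs the mog-5 libraries lay above N2 az04 and below sacy-1.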

How the results depend on the processing

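The sacy-1 count stayed within 1.5 times of its 57 in every alternative. It was 41 to 54 with 1 library left out, 44 against N2 az04, 51 against all 6 N2 libraries, 59 on the arcsine square root scale, 56 with a variance trend and robust fit, 65 in 1 fit of all 12 libraries, and 71, 62 and 49 with a minimum difference of 0, 10 and 20 points. The mog-5 count of 10 was 2 to 4 with 1 library left out, 22 against all 6 N2 libraries, 19 against N2 az02 and 18 with no minimum difference. The count between the N2 sets was 0 to 1 with 1 library left out. The interaction count of 14 was 6 to 22 with 1 library left out: 9 without az023, 8 without az041, 6 without az043, 6 without az044, 22 without az045 and 8 without az046. Over the 134 members with every library between 1 and 99%, mean differences in upstream use were 15.85 points (sacy-1), 6.93 (mog-5) and 5.05 (N2 sets). With the median over members of each library in place of the mean they were 16.04, 8.42 and 5.51 points. These last values are not median differences per member. Among the values of single named members, 538 alternatives kept the direction and the side of the threshold, 71 lost a call and 5 gained one. No result reversed. The cause of these changes was not tested beyond the fewer libraries or members in each. No paired analysis was possible because the labels give the groups no shared replicate numbers. Depth is unknown, so the precision of a single library's value could not be set against its reads.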
